A study of Mus musculus with 21 samples.

Results

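The genes described here encode the subunits of the proteasome and the factors that assemble and cap it, as read from newly made RNA in cultured mouse cortical neurons. They were taken by name, as all gene symbols that begin with Psm, one letter from a to g and a digit, and this gave 50 of the 24984 genes in the deposited table. Of these 50, 49 are subunits, activators, an inhibitor or assembly factors: 15 alpha and beta genes of the core particle, 4 tissue-restricted or inducible beta genes, 17 genes of the regulatory particle, 5 activator genes, 7 assembly factors and the inhibitor gene Psmf1. The remaining gene, Psmc3ip, has a matching symbol but encodes a partner protein of a regulatory subunit and not a subunit.

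The proteasome is the protease that degrades proteins tagged with ubiquitin. Its core particle is a barrel of alpha rings, which gate the entrance, around beta rings, of which Psmb5, Psmb6 and Psmb7 carry the proteolytic sites. The regulatory particle caps the barrel: its base holds a ring of ATPases (the Psmc genes) that unfold substrates, and its lid removes ubiquitin through Psmd14. Other caps, called activators, open the barrel in its place, and in immune cells Psmb8, Psmb9 and Psmb10 replace the proteolytic subunits. In neurons the proteasome is known to take part in the remodelling of synapses when activity changes.

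The cultures came from CD1 mice of mixed sex and were used on day 17 in vitro. They received DMSO or 25 µM MM401, a compound known as an inhibitor of the contact between the histone methyltransferase MLL1 and its partner WDR5, for 30 min, and then 40 µM bicuculline-methiodide, which blocks GABA-A receptors and so raises network activity, or water as the vehicle, over 1 h or over 4 h. All cultures took up 2 mM bromouridine over the last 30 min, and the RNA that held it was sequenced (BrU-seq). Values therefore reflect RNA made in that window, introns included, and not the standing mRNA or protein. Groups of 3 libraries, described as biological replicates, were DMSO with water for 4 h, DMSO with bicuculline for 1 h or for 4 h, MM401 with water for 1 h and MM401 with bicuculline for 1 h or for 4 h. MM401 with water for 4 h has 2 libraries here, because 1 more held 316741 counts, 0.503% of the median of the others, and was left out by the rule that defined the gene set. A DMSO group with water for 1 h was not analysed here, so both DMSO bicuculline groups were set against the same DMSO water 4 h libraries, and under MM401 each time had its own water group.

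The 20 libraries held 49886348 to 87939384 gene counts, and 18840 to 19277 genes had a count. All 9 neuron markers listed for the check were expressed, summing to 4864 to 7895 CPM (counts scaled to the size of the library), against 1068 to 1652 CPM for 6 astrocyte markers, 155 to 205 CPM for 6 markers of the oligodendrocyte lineage and 48.4 to 82.3 CPM for 8 microglial markers, so the cultures were neuronal with glia present. Fewer cells of a type and less RNA per cell cannot be told apart in such bulk samples. The DMSO water 4 h library of replicate 1 stood apart from the other DMSO water libraries, with a scaling factor of 1.02 against 1.14 and 1.16, and results that rest on it are given with and without it. Differences were tested with edgeR's quasi-likelihood test on the counts of the 20 libraries, over 16959 genes, and a gene is called here where its Benjamini-Hochberg adjusted p was under 0.05. Of the 50 genes 49 passed the filter on low counts. Psmb11, a form of the thymus, did not.

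The sequences just upstream of a few of these genes are shown because the genes responded in different ways although proteasome genes are known to share upstream elements. The windows are the 250 bases before the RefSeq start (GRCm38.p6), 5′ to 3′ on the gene's strand, for Psme4 at chr11:30771525-30771774 (plus strand) and Psmd11 at chr11:80428365-80428614 (plus strand), which rose with bicuculline, and for Psmd9 at chr5:123227940-123228189 (plus strand), Psmg1 at chr16:95990961-95991210 (minus strand) and Psmb5 at chr14:54617996-54618245 (minus strand), which fell. Capitals mark CCGGAAG (the core of sites of ETS factors), TGACNNNGC (the core of the antioxidant response element, which the factors Nfe2l1 and Nfe2l2 bind with a small Maf partner), CCAAT (the CCAAT box) and TGACGTCA (the cAMP response element), on either strand.
Psme4: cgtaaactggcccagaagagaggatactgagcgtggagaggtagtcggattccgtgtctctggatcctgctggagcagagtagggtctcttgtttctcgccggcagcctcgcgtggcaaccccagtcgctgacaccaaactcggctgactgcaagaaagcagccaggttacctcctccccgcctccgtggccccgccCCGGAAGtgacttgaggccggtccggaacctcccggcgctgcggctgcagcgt
Psmd11: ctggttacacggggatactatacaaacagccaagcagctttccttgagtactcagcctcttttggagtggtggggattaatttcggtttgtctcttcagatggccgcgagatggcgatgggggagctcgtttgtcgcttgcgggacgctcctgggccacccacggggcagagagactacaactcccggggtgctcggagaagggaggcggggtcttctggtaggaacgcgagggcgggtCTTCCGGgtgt
Psmd9: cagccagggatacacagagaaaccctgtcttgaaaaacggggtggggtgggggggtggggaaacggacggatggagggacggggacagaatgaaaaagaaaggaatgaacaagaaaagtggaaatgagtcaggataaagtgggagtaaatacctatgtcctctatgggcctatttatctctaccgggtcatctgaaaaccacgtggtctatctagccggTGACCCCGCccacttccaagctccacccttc
Psmg1: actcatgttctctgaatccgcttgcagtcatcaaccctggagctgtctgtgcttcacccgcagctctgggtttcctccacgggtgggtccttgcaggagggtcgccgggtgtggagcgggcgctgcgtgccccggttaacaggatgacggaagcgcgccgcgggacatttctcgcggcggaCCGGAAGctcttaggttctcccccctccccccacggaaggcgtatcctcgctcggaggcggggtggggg
Psmb5: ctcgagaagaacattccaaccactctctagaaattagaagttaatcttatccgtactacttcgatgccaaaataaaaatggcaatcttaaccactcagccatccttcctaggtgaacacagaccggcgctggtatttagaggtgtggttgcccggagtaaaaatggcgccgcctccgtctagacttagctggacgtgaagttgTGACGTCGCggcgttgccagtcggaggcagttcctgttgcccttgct
CCGGAAG stands in the windows of Psme4, Psmd11 and Psmg1, so both a rising and a falling gene hold it. TGACNNNGC stands in the windows of Psmd9 and Psmb5. Of the 50 genes 42 had an entry, and CCGGAAG was found in 13 of them (31.0%) against 7.83% of 27025 genes with a promoter entry. TGACNNNGC was found in 11.9% of the 42 against 11.5% of all, CCAAT in 35.7% against 37.5%, and TGACGTCA in 0 of 42 against 1.77%. A match of letters is a description and does not show that a factor binds. Psmb2 and Psmg2, described next to these genes, had no entry.

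With bicuculline proteasome genes were called in both directions. Values were below 0 in 37 of 49 genes after 1 h and 35 after 4 h under DMSO, beside 9097 and 8842 of all 16959, and in 20 and 22 of 49 under MM401, beside 8508 and 8255. After 1 h under DMSO 16 of 49 were called, 6 higher and 10 lower, where 44.6% of all tested genes were called, 20% higher and 24.5% lower. After 4 h under DMSO 13 were called, 5 higher and 8 lower, against 49.2% of all tested genes, 23.7% higher and 25.5% lower. Under MM401 16 were called after 1 h, 6 higher and 10 lower, against 39.9% of all tested genes, 18.1% higher and 21.8% lower. After 4 h under MM401 14 were called, 6 higher and 8 lower, against 44.6% of all tested genes, 23% higher and 21.7% lower. The share of proteasome genes called, 26.5% to 32.7%, was thus below that of all tested genes in each comparison. Their median log2 fold change was -0.11 and -0.10 under DMSO after 1 h and 4 h, and 0.06 and 0.04 under MM401, beside -0.04, -0.02, -0.0018 and 0.02 over all tested genes. The split into higher and lower rests on the scaling: scaled by plain library size, the median of all tested genes moved to -0.23, -0.30 and -0.21 in the first 3 comparisons and the splits were 2 higher and 19 lower, 2 and 26, 2 and 16, and 3 and 11. Plain library size ended each call of Psmc2, Psmc6, Psmd1 and Psma5 named below for bicuculline against water, each call of Psmb2, and that of Psmb7. The fit with all 21 libraries ended each call of Psmc1, Psmc6, Psmd1, Psma4 and Psma6 against water and the 4 h calls of Psmc2 (adjusted p = 0.0592 to 0.358), together with calls of Psmd11, Psmb5, Psmb1, Psmb2, Psmd6 and Psmg1 named with those genes. Leaving out DMSO water replicate 1 added calls after 1 h for Psmb3 (-0.26, adjusted p = 0.0241), Psmd6 (-0.37, adjusted p = 0.00876) and Psmd14 (0.20, adjusted p = 0.0172) and after 4 h for Psmd14 (0.17, adjusted p = 0.0402), and ended the 1 h call of Psma4 (adjusted p = 0.0755). With DESeq2's size factors in place of edgeR's they were 8 and 8, 5 and 8, 8 and 9, and 5 and 8.

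**Figure D1:**
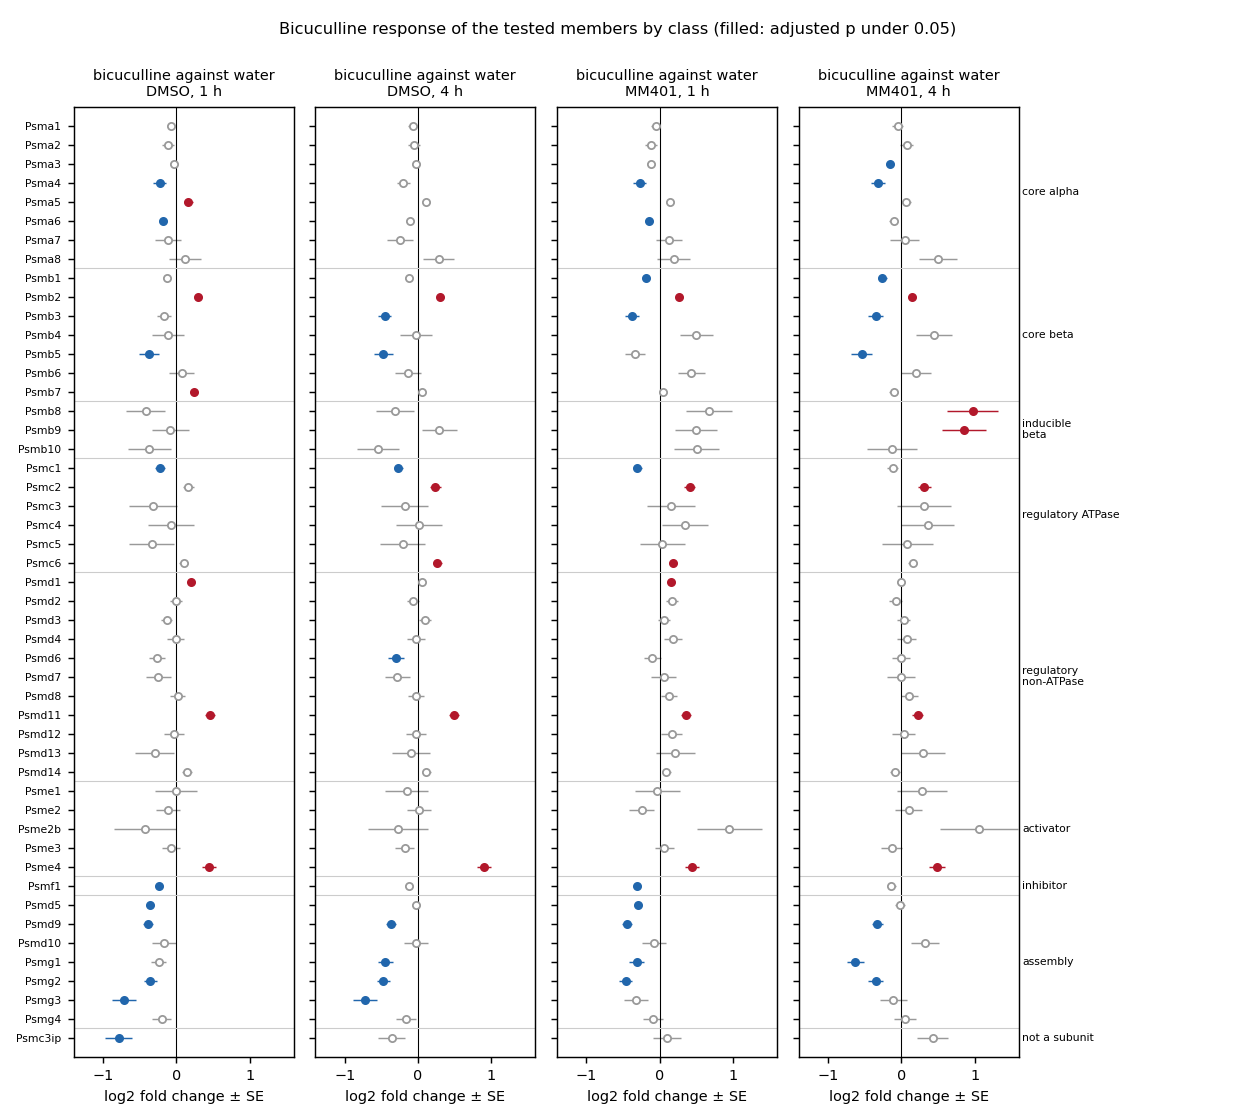
Log2 fold change (x axis, ± SE) of the 49 tested genes for bicuculline against water, one panel per pretreatment and time. Rows are genes grouped by class, filled points are called (red higher, blue lower) and open points are not; Psme4 and Psmd11 are red in all panels, and no assembly factor is red in any.

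Among the activators, Psme4 was the one called against water. Psme4 encodes PA200, a single large protein that caps the core barrel and is known for the degradation of acetylated histones. It spans 109 kb and made up 14.1% to 18.3% of all proteasome gene counts in the DMSO water libraries and 24.6% to 26.2% after 4 h of bicuculline. Its level was 363, 298 and 268 CPM in the DMSO water libraries, 410.4, 402 and 455 CPM after 1 h of bicuculline and 593, 587 and 559 CPM after 4 h. None of these groups overlapped, and water replicate 1, the library that stood apart, was the highest of its group. The log2 fold change was 0.45 ± 0.09 (SE) after 1 h (adjusted p = 5e-04) and 0.90 ± 0.09 after 4 h (adjusted p = 5.7e-08), and without water replicate 1 it was 0.58 and 1.03. From 1 h to 4 h of bicuculline it rose by a further 0.46 ± 0.09 (adjusted p = 0.000536).

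Under MM401 Psme4 was at 356, 310.2 and 336 CPM with water for 1 h and 352 and 368 CPM with water for 4 h. With bicuculline it was at 453, 495 and 414 CPM after 1 h and 513, 538 and 459 CPM after 4 h, above each water library. Its log2 fold changes were 0.44 ± 0.09 (adjusted p = 0.000663) and 0.48 ± 0.11 (adjusted p = 0.000795). The step from 1 h to 4 h, 0.15 ± 0.09, was not called there (adjusted p = 0.238), but was called with plain library size (0.23, adjusted p = 0.00438) and with a correction for gene length (0.21, adjusted p = 0.0334). These calls for Psme4 against water held under each of the 8 alternative settings and with each library of the comparison left out.

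The other activators form the PA28 caps, with Psme1 and Psme2 in the cytoplasmic form and Psme3 in the nuclear one. Psme3 was at 12.8 to 17.9 CPM in DMSO water and showed log2 fold changes of -0.07 ± 0.13 and -0.18 ± 0.13 under DMSO. Psme1 and Psme2 were low, with means of 1.39 and 1.14 CPM in DMSO water. Neither was called against water, Psme1 with -0.0037 ± 0.29 and -0.16 ± 0.29 and Psme2 with -0.11 ± 0.17 and 0.02 ± 0.16 under DMSO. Psme2 was higher after 4 h than after 1 h of bicuculline under MM401 (0.48 ± 0.17, adjusted p = 0.0368), a call lost under 5 of the 8 alternatives. Psme2b is a copy of Psme2 of 1.06 kb, 24.7% of which overlaps another gene on the same strand, and its counts cannot be told from those of its neighbours and its parent gene. It had log2 fold changes of -0.43 ± 0.42 and -0.27 ± 0.41 under DMSO and of 0.95 ± 0.44 and 1.06 ± 0.53 under MM401 (adjusted p = 0.102 and 0.118), the latter without overlap. The fits on only the groups compared called both of the latter (adjusted p = 0.0123 and 0.00442). Under MM401 Psme1 had -0.04 ± 0.31 and 0.28 ± 0.34 and Psme2 -0.25 ± 0.17 and 0.10 ± 0.19. The summed level of the activators, 288 to 380.0 CPM in DMSO water, 426 to 472 CPM after 1 h and 578 to 608 CPM after 4 h, therefore followed Psme4.

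**Figure D2:**
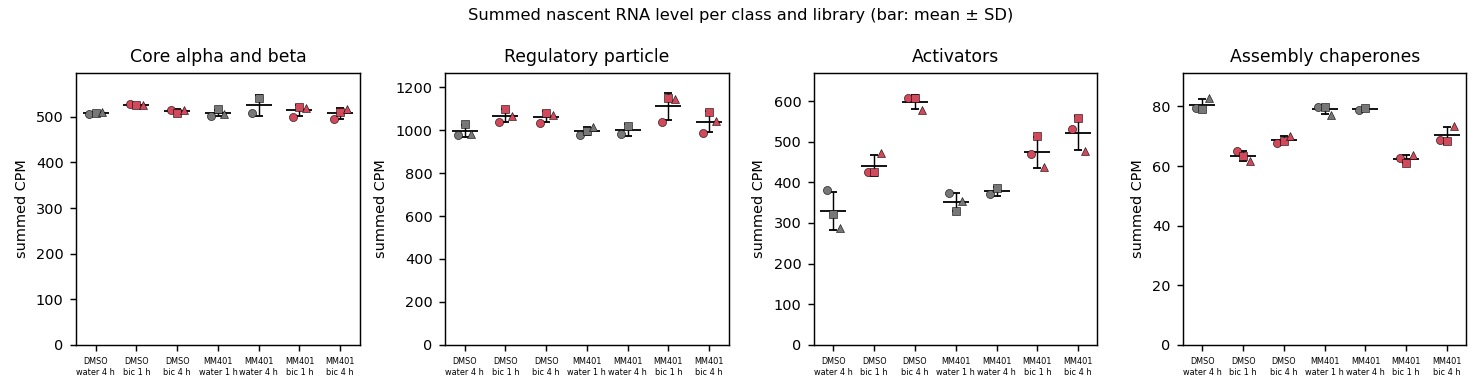
Summed CPM (y axis, from 0) of 4 classes in each of the 20 libraries (x axis, groups; grey water, red bicuculline; bar, mean ± SD). The activator sum rises from 288-380.0 CPM in DMSO water to 578-608 CPM after 4 h of bicuculline, the core sum lies between 494 and 542 CPM in all libraries, and the assembly sum is lower in each bicuculline library than in any water library.

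In the regulatory particle Psmd11 had the largest rise under DMSO, and under MM401 that of Psmc2 was larger. It is a scaffold of the lid, and in stem cells it is known to set how much complete proteasome is formed. Its level was 101, 90.9 and 91.2 CPM in DMSO water, 125, 122 and 142 CPM after 1 h of bicuculline and 137, 125 and 134 CPM after 4 h. Each bicuculline library was above each water library. The log2 fold changes were 0.46 ± 0.07 (adjusted p = 1.11e-05) and 0.49 ± 0.07 (adjusted p = 3.59e-06), so the level reached at 1 h was held at 4 h. Under MM401 they were 0.36 ± 0.07 (adjusted p = 0.000179) and 0.22 ± 0.08 (adjusted p = 0.0204), and with all 21 libraries neither was called (adjusted p = 0.0858 and 0.994). The call at 4 h was also lost with plain library size, without water replicate 1 or 2 and without bicuculline replicate 3 (adjusted p = 0.286, 0.0653 and 0.0518 for the last 3).

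Of the 6 ATPases, Psmc2 and Psmc6 were called higher and Psmc1 lower. The shares called were 16.7% and 50% after 1 h and 4 h under DMSO and 50% and 16.7% under MM401. Those of all tested genes were 44.6%, 49.2%, 39.9% and 44.6%. Psmc2 rose after 4 h under DMSO (0.23 ± 0.08, adjusted p = 0.0149) and after 1 h and 4 h under MM401 (0.41 ± 0.08 and 0.31 ± 0.09). After 1 h under DMSO it had 0.16 ± 0.08, without overlap but not called (adjusted p = 0.0873). It was called there by DESeq2 (adjusted p = 0.0343), with DESeq2's size factors (0.0313), with the replicate block (0.0319), under the correction for gene length (0.00401) and without bicuculline replicate 3 or water replicate 2 (0.043 and 0.0382). Psmc6 rose after 4 h under DMSO (0.26 ± 0.06, adjusted p = 0.000794) and after 1 h under MM401 (0.18 ± 0.06, adjusted p = 0.0169). Psmc1 fell under DMSO by 0.22 on the log2 scale after 1 h and by 0.27 after 4 h (adjusted p = 0.00749 and 0.0013), and under MM401 after 1 h by 0.30 (adjusted p = 0.000648). The correction for gene length ended both DMSO calls of Psmc1 (adjusted p = 0.611 and 0.22). Single libraries decided some of these calls: Psmc2 after 4 h was lost under DMSO without bicuculline replicate 2 or water replicate 3 (adjusted p = 0.0811 and 0.0881) and under MM401 without water replicate 1 (0.0683). Psmc6 was lost under MM401 without bicuculline replicate 2 or water replicate 2 (0.0608 and 0.0783). Psmc1 was lost after 1 h under DMSO without water replicate 3 (0.0845), and also with only the groups compared (0.0936). Psmc3, Psmc4 and Psmc5 were called in no comparison by the main test (Psmc4 was higher after 4 h under MM401 with only the groups compared, 0.34, adjusted p = 0.0341). Their replicates lay far apart: Psmc3 was at 15.6, 22.5 and 23.0 CPM in DMSO water and at 9.97, 23.9 and 15.1 CPM after 1 h of bicuculline. Genes of a single ring of the complex thus differed in direction.

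Of the 11 other genes of the regulatory particle, Psmd1 and Psmd6 were called against water beside Psmd11. The shares called were 18.2% and 18.2% after 1 h and 4 h under DMSO and 18.2% and 9.09% under MM401. These lay below those of all tested genes (44.6%, 49.2%, 39.9% and 44.6%). Psmd1, the largest scaffold of the base, was at 188, 202 and 189 CPM in DMSO water, 225, 224 and 219 CPM after 1 h and 206, 192 and 201 CPM after 4 h. Its 1 h group lay above both others, which overlapped. It rose after 1 h (0.21 ± 0.05, adjusted p = 0.00232) and fell from 1 h to 4 h by 0.16 (adjusted p = 0.0198), and the same pair of values under MM401 was 0.16 ± 0.05 and -0.17 ± 0.05. The rise at 1 h was lost under a correction for gene length under DMSO (0.11, adjusted p = 0.0816) and under MM401 (0.11, adjusted p = 0.0767), and 17.3% of Psmd1 overlaps Htr2b on the opposite strand. The rise under MM401 was lost without bicuculline replicate 2 or water replicate 1 (adjusted p = 0.066 and 0.0536), and the fall from 1 h to 4 h under DMSO without 1 h replicate 1 or 2 or 4 h replicate 2 (adjusted p = 0.0521, 0.0512 and 0.0963). Psmd6, of the lid, fell after 4 h under DMSO (-0.30 ± 0.11, adjusted p = 0.0296), a call lost without bicuculline replicate 1 or 3 or water replicate 2 (adjusted p = 0.103, 0.0954 and 0.123), under the correction for gene length (-0.11, adjusted p = 0.284) and with all 21 libraries (adjusted p = 0.13). The deubiquitinase Psmd14 had log2 fold changes of 0.14 ± 0.06 and 0.11 ± 0.06 under DMSO and was not called, with levels of 302, 274 and 269 CPM in water and 322, 287 and 325 CPM after 1 h. It was called higher after 1 h by DESeq2 (0.18, adjusted p = 0.0258), with DESeq2's size factors (adjusted p = 0.0455) and without bicuculline replicate 2 (adjusted p = 0.021), and at both times without water replicate 1 (adjusted p = 0.0172 and 0.0402). With plain library size it was called lower after 4 h under DMSO (-0.16, adjusted p = 0.0101). Under MM401 after 4 h Psmd14 was at 285, 296 and 280 CPM against 297 and 312 CPM in water, without overlap. The main test did not call it there. It was called lower under the correction for gene length (-0.14, adjusted p = 0.0493) and with plain library size (-0.16, adjusted p = 0.0245). The ubiquitin receptor Psmd4 had -0.0079 ± 0.12 and -0.03 ± 0.12.

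The summed level of the core particle was 507 to 511 CPM in DMSO water, 526 to 527 CPM after 1 h and 509 to 516 CPM after 4 h of bicuculline, so that the 1 h libraries lay slightly above the water libraries and the 4 h libraries overlapped them. Within it, genes moved in opposite directions. Psmb2, a beta ring subunit without a proteolytic site, was at 86.4, 79.1 and 80.5 CPM in DMSO water, 99.3, 99.9 and 103 CPM after 1 h and 100.7, 102 and 101 CPM after 4 h. Its bicuculline libraries all lay above its water libraries, with log2 fold changes of 0.30 ± 0.05 after 1 h and 0.30 ± 0.05 after 4 h (adjusted p = 4.48e-05 and 2.35e-05). Under MM401 it rose by 0.27 ± 0.05 after 1 h and by 0.14 ± 0.06 after 4 h (adjusted p = 0.000146 and 0.039), and the last call was lost under 6 of the 8 alternatives and without bicuculline replicate 2 or 3 or water replicate 1 or 2 (adjusted p = 0.0593 to 0.483).

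The 3 standard proteolytic genes were not called alike. Psmb5, of the chymotrypsin-like site and the target of clinical proteasome inhibitors, was at 3.22, 2.87 and 3.54 CPM in DMSO water, 2.49, 2.43 and 2.52 CPM after 1 h and 2.58, 1.98 and 2.38 CPM after 4 h. It fell by 0.37 ± 0.13 and 0.47 ± 0.13 on the log2 scale (adjusted p = 0.0255 and 0.00497), and under MM401 after 4 h by 0.54 ± 0.15 (adjusted p = 0.00483); the DMSO calls were lost under the correction for gene length (-0.17 and -0.27). The 1 h call was also lost without any 1 of the bicuculline libraries or without water replicate 3 (adjusted p = 0.0535, 0.0659, 0.0629 and 0.147), with all 21 libraries (0.0517) and with only the groups compared (0.0818), and the call under MM401 without water replicate 1 (adjusted p = 0.152). Psmb7, of the trypsin-like site, rose after 1 h under DMSO, from 95.3, 92.7 and 93.8 CPM to 112, 110.3 and 109.9 CPM (0.24 ± 0.05, adjusted p = 0.000654), and fell again by 0.19 from 1 h to 4 h (adjusted p = 0.00599), the latter not with all 21 libraries (adjusted p = 0.0652). Its log2 fold change at 1 h under MM401 was 0.04 ± 0.05 (adjusted p = 0.521). Psmb6, of the caspase-like site, was not called, with 0.07 ± 0.18 and -0.13 ± 0.18 under DMSO. After 1 h under MM401 it was at 3.95, 3.88 and 5.15 CPM against 3.09, 3.19 and 3.37 CPM in water, with no overlap (0.43 ± 0.18, adjusted p = 0.0633), and was called higher by DESeq2 (adjusted p = 0.0286) and under 4 further alternatives (adjusted p = 0.0173 to 0.039). Per kb of gene these 3 genes were at means of 0.829 (Psmb5), 1.74 (Psmb6) and 1.68 (Psmb7) CPM per kb in DMSO water.

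Psmb3, another beta ring gene, fell after 4 h under DMSO (-0.46 ± 0.10, adjusted p = 0.000385) and at both times under MM401 (-0.38 ± 0.10 and -0.35 ± 0.11). Psmb4, of the same ring, was called in no comparison with water by the main test. Under MM401 it lay above water without overlap, at 9.86 to 13.6 against 7.23 to 8.39 CPM after 1 h and 9.37 to 13.2 against 7.75 to 9.03 CPM after 4 h. With only the groups compared it was called higher at both times (0.50 and 0.42, adjusted p = 0.00537 and 0.0179). After 1 h it was also called under the correction for gene length (adjusted p = 0.0208). Psmb1 fell at both times under MM401 (-0.19 ± 0.05 and -0.26 ± 0.06, adjusted p = 0.00747 and 0.00122). The first call was lost under the correction for gene length (adjusted p = 0.205) and with all 21 libraries (adjusted p = 0.0697). Under DMSO its values of -0.13 ± 0.05 and -0.12 ± 0.05 were not called by the main test. Plain library size called Psmb1 lower there at both times (-0.32 and -0.40, adjusted p = 0.000623 and 4.28e-05). Of the 8 alpha genes, 3 were called after 1 h under DMSO (37.5%, beside 44.6% of all tested genes), 1 higher and 2 lower. After 4 h under DMSO edgeR's quasi-likelihood test called 0, where 1 had an unadjusted p under 0.05, as did 54.9% of all tested genes. Calls appeared there under other settings: Psma4 was lower without bicuculline replicate 2 (-0.29, adjusted p = 0.00815), without water replicate 2 or 3 (adjusted p = 0.0498 and 0.0415) and with the replicate block (adjusted p = 0.028). Psma8 was higher without bicuculline replicate 2 (0.52, adjusted p = 0.0354). Psma5 was higher under the correction for gene length (0.16, adjusted p = 0.0411), and 6 were lower with plain library size. Under MM401 2 were called lower at each time (25%, beside 39.9% and 44.6% called of all tested genes). The lower genes were Psma4 (-0.23 ± 0.08 after 1 h under DMSO, -0.27 ± 0.09 and -0.32 ± 0.09 under MM401), Psma6 (-0.18 ± 0.06 after 1 h under DMSO and -0.14 ± 0.06 after 1 h under MM401) and Psma3 (-0.16 ± 0.06 after 4 h under MM401). Most of these calls were not stable. That of Psma4 after 1 h was lost under DMSO by DESeq2 (adjusted p = 0.0628), under 4 further alternatives and without any library other than bicuculline replicate 2 (0.0624 to 0.13). Under MM401 it was lost without bicuculline replicate 1 (0.0782) and under the correction for gene length (0.111). That of Psma6 after 1 h was lost under DMSO without bicuculline replicate 3 or water replicate 2 (0.0837 and 0.143) and under 3 alternatives. Under MM401 it was lost by DESeq2 (0.104), under 5 further alternatives and without any library other than bicuculline replicate 3 (0.0737 to 0.208). That of Psma3 was lost without any library other than bicuculline replicate 3 (0.0577 to 0.154), with no filter (0.0515) and under the correction for gene length (0.0545). Psma5 was the higher one (0.17 ± 0.06, adjusted p = 0.0289), but not without bicuculline replicate 1 or 3 or water replicate 2 (adjusted p = 0.0594, 0.0839 and 0.0806). Its call was also lost with only the groups compared (adjusted p = 0.0582). Psmf1, which encodes the proteasome inhibitor PI31, fell from 36.7, 36.1 and 35.1 CPM in DMSO water to 31.4, 30.03 and 30.2 CPM after 1 h (-0.23 ± 0.06, adjusted p = 0.00146). After 4 h it was at 33.4, 32.6 and 33.5 CPM, below water without overlap but not called by the main test. Plain library size called it lower after 4 h under DMSO (-0.39, adjusted p = 0.000123) and under MM401 (-0.21, adjusted p = 0.0489). Under MM401 it fell after 1 h by 0.31 (adjusted p = 0.000101).

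**Figure D3:**
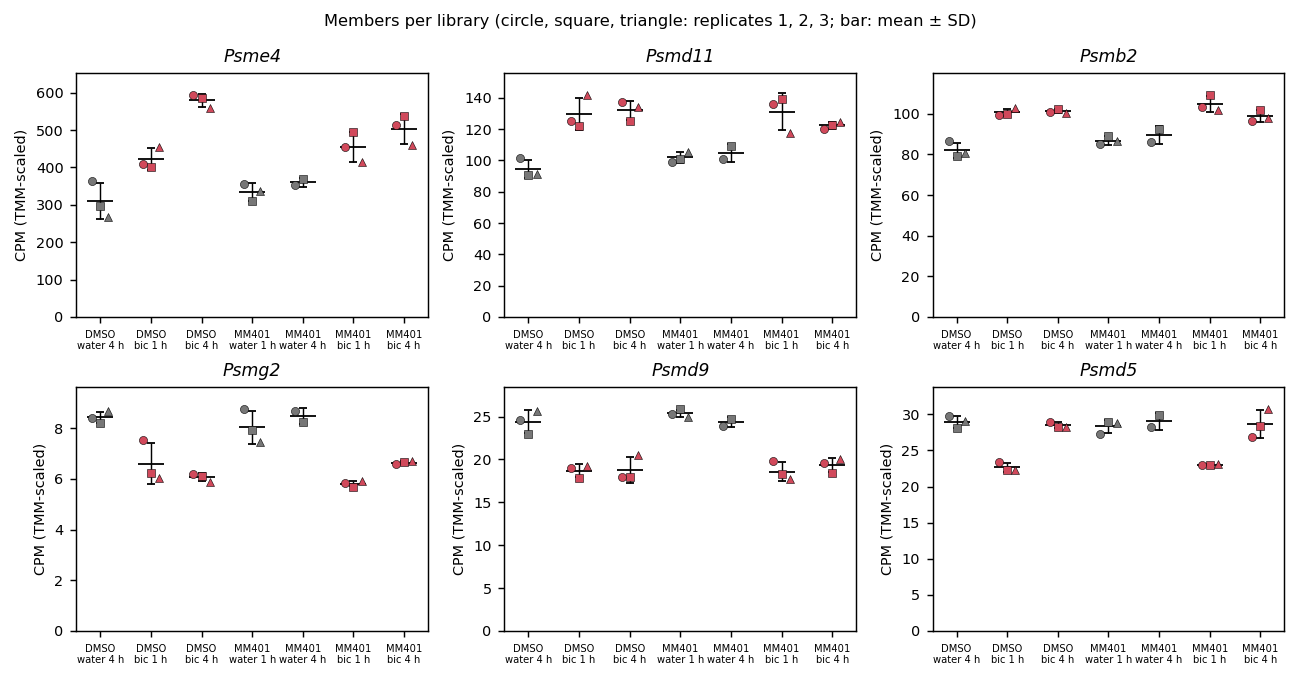
CPM (y axis, from 0) of 6 genes in each of the 20 libraries (x axis, groups; grey water, red bicuculline; symbols, replicate numbers; bar, mean ± SD). Psme4, Psmd11 and Psmb2 lie higher and Psmg2 and Psmd9 lower in the bicuculline groups, while Psmd5 is low after 1 h, at 22.3 to 23.4 CPM under DMSO, and back at 28.2 to 29.0 CPM after 4 h.

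Of the 7 assembly factors, 4 fell and 0 rose after 1 h under DMSO, after 4 h under DMSO and after 1 h under MM401, and 3 fell and 0 rose after 4 h under MM401. Of all tested genes 24.5%, 25.5%, 21.8% and 21.7% were called lower in these comparisons. The median log2 fold change of the 7 was -0.35 and -0.37 under DMSO and -0.32 and -0.11 under MM401, beside -0.04, -0.02, -0.0018 and 0.02 over all tested genes. After 4 h under MM401 2 of the 7 had a positive value. Their summed level was 79.2 to 82.9 CPM in DMSO water, 61.8 to 65.1 CPM after 1 h and 67.8 to 70.1 CPM after 4 h, and the bicuculline libraries lay below the water libraries.

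Psmg1 to Psmg4 encode the chaperones that build the alpha ring of the core. Psmg2 was at 8.42, 8.21 and 8.67 CPM in DMSO water, 7.52, 6.24 and 6.03 CPM after 1 h and 6.21, 6.12 and 5.89 CPM after 4 h. All of its bicuculline libraries were below its water libraries, with log2 fold changes of -0.35 ± 0.09 and -0.47 ± 0.09 under DMSO (adjusted p = 0.00256 and 0.000128) and -0.47 ± 0.09 and -0.35 ± 0.10 under MM401 (adjusted p = 0.000264 and 0.00634). Its partner Psmg1 fell after 4 h under DMSO (-0.44 ± 0.11, adjusted p = 0.00144) and at both times under MM401 (-0.32 ± 0.11 and -0.63 ± 0.12). The correction for gene length ended the calls of Psmg2 after 1 h under DMSO (-0.19, adjusted p = 0.0916) and of Psmg1 after 1 h under MM401 (-0.19, adjusted p = 0.179). With all 21 libraries Psmg1 was not called after 4 h under DMSO (adjusted p = 0.152) or after 1 h under MM401 (adjusted p = 0.382). Leaving out water replicate 1 ended that of Psmg2 after 4 h under MM401 (adjusted p = 0.0532), and leaving out bicuculline replicate 1 or water replicate 1 or 2 that of Psmg1 after 1 h under MM401 (adjusted p = 0.0875, 0.115 and 0.0642). Psmg3 fell under DMSO from 2.28, 3.21 and 3.72 CPM in water to 1.86, 2.10 and 1.66 CPM after 1 h and 1.80, 1.93 and 1.88 CPM after 4 h (-0.71 ± 0.16 and -0.72 ± 0.16, adjusted p = 0.00101 and 0.000733). Under MM401 it had -0.32 ± 0.17 and -0.11 ± 0.18, which were not called. Psmg4 was called in none of the 4 comparisons by the main test (-0.20 to 0.05). With plain library size it was called lower under DMSO after 1 h and 4 h (-0.40 and -0.45, adjusted p = 0.0473 and 0.0234).

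Psmd5, Psmd9 and Psmd10, which carry names of the regulatory particle, encode chaperones of the ATPase ring that are not found in the finished proteasome. Psmd9 was at 24.6, 23.0 and 25.6 CPM in DMSO water, 18.96, 17.8 and 19.3 CPM after 1 h and 17.9, 17.9 and 20.6 CPM after 4 h, again with no overlap. Its log2 fold changes were -0.39 ± 0.07 and -0.37 ± 0.07 under DMSO and -0.45 ± 0.07 and -0.33 ± 0.08 under MM401 (adjusted p = 8.15e-05, 8.49e-05, 1.65e-05 and 0.00116). Psmd5 was called lower after 1 h and not after 4 h. It was at 29.8, 28.1 and 29.1 CPM in DMSO water, 23.4, 22.3 and 22.3 CPM after 1 h and 29.0, 28.2 and 28.3 CPM after 4 h. The fall was 0.36 ± 0.06 under DMSO and 0.30 ± 0.06 under MM401 (adjusted p = 3.06e-05 and 0.000249), and the return from 1 h to 4 h was 0.33 ± 0.06 and 0.31 ± 0.06 (adjusted p = 8.46e-05 and 0.000182). The 4 h values against water were -0.02 ± 0.06 under either pretreatment, and with plain library size Psmd5 was called lower at 4 h under DMSO (-0.30, adjusted p = 0.00292). Psmd10 was not called. Psmc3ip, which is not a subunit, fell after 1 h under DMSO (-0.79 ± 0.19, adjusted p = 0.00171).

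From 1 h to 4 h of bicuculline 7 of 49 genes were called under DMSO, 4 higher and 3 lower, against 34.2% of all tested genes, 19.1% higher and 15.2% lower. Under MM401 6 were called, 4 higher and 2 lower, against 33.6% of all tested genes, 17.5% higher and 16% lower. Under DMSO Psme4, Psmd5, Psmd3 (0.23 ± 0.08) and Psmc6 (0.16 ± 0.06) were higher at 4 h and Psmb3 (-0.29 ± 0.10), Psmb7 and Psmd1 lower. Under MM401 Psmd5, Psme2, Psmf1 (0.18 ± 0.06) and Psmb9 (0.69 ± 0.26) were higher and Psmd1 and Psmb7 (-0.14 ± 0.05) lower. Each of these calls other than those of Psme4, Psmd5 and, under DMSO, Psmb7 was lost when a single library was left out. With all 21 libraries those of Psmd3, Psmc6, Psmb7 and Psmd1 under DMSO and each of those other than Psmd5 under MM401 were lost too (adjusted p = 0.0652 to 0.452). Under DMSO the single libraries were 1 h replicate 1 or 3 or 4 h replicate 3 for Psmd3 (adjusted p = 0.0624, 0.229 and 0.187), 1 h replicate 2 or 3 or 4 h replicate 1 or 2 for Psmc6 (0.0751 to 0.206), and 1 h replicate 3 or 4 h replicate 2 for Psmb3 (0.0766 and 0.0997), beside those given above for Psmd1. Under MM401 they were 1 h replicate 2 or 4 h replicate 1 for Psmd1 (0.0571 and 0.0691), 1 h replicate 1 or 2 or 4 h replicate 1 or 2 for Psmb7 (0.072 to 0.142). They were 1 h replicate 1 or 3 or 4 h replicate 2 or 3 for Psmf1 (0.0578 to 0.0936), 1 h replicate 2 or 3 or 4 h replicate 1 or 3 for Psme2 (0.0914 to 0.152), and any library other than 4 h replicate 3 for Psmb9 (0.0502 to 0.184).

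The inducible beta genes Psmb8 and Psmb9 were near the limit of detection, and Psmb10 had 36 to 150 counts in a library. In DMSO water Psmb10 was at a mean of 0.589 CPM per kb, beside 1.68 for Psmb7, which it replaces. In DMSO water Psmb8 was at a mean of 0.159 and Psmb9 at 0.122 CPM per kb, beside 0.829 for Psmb5, which Psmb8 replaces in the immunoproteasome, and 1.74 for Psmb6, which Psmb9 replaces. Psmb8 had 10 to 44 and Psmb9 15 to 72 counts in a library. Under MM401 after 4 h both were called higher, Psmb8 with 0.417, 0.580 and 0.392 CPM against 0.277 and 0.189 CPM in water (0.97 ± 0.34, adjusted p = 0.0255) and Psmb9 with 0.833, 0.935 and 0.603 CPM against 0.555 and 0.309 CPM (0.86 ± 0.30, adjusted p = 0.0237). These 2 water libraries were low beside the DMSO water libraries, which held 0.479, 0.516 and 0.558 CPM of Psmb8 and 0.571, 0.657 and 0.690 CPM of Psmb9. The bicuculline and water groups did not overlap, but the call of Psmb8 was lost without water replicate 2 or bicuculline replicate 2 (adjusted p = 0.239 and 0.0938), and that of Psmb9 without either of these or bicuculline replicate 1 (adjusted p = 0.334, 0.0798 and 0.0561). That of Psmb8 was also lost with only the groups compared (adjusted p = 0.052). Under DMSO after 4 h neither was called (-0.31 ± 0.26 and 0.29 ± 0.24), and Psmb10 was called in none of the 4 comparisons by the main test. Under DMSO Psmb10 was called lower after 4 h with plain library size (-0.83, adjusted p = 0.0281). It was also called lower after 1 h without bicuculline replicate 2 (-0.81, adjusted p = 0.0331).

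Values of other genes of antigen presentation and of microglia moved beside these. Of 13 neighbours of the immunoproteasome and interferon-responsive genes, 5 rose after 4 h under MM401 (B2m 0.73 ± 0.14, Irf1 0.66 ± 0.16, Nlrc5 0.63 ± 0.15, H2-K1 0.63 ± 0.18 and Tap2 0.46 ± 0.17) and 0 fell, a share of 38.5% called beside 44.6% of all tested genes (23% higher). With water at 4 h 12 of the 13 had lower values under MM401 than under DMSO (median -0.46); 0 were called and 9 had an unadjusted p under 0.05, against 12.9% of all tested genes. Under DMSO 0 of the 13 were called after 1 h and 0 after 4 h, where 2 and 1 had an unadjusted p under 0.05 (51.4% and 54.9% of all tested genes). After 1 h under MM401 1 of the 13 was called, and higher (7.69%, beside 39.9% of all tested genes), and 12 had positive values. The summed level of the 8 microglial markers was 72.4 to 77.8 CPM after 4 h of bicuculline under MM401 against 48.4 to 54.6 CPM in its water group, and 65.4 to 82.3 against 56.7 to 60.9 CPM under DMSO, with none of the 8 at 0 in all libraries. Sums of other markers were higher too after 4 h under MM401, without overlap: 6673 to 7316 against 5755 to 5838 CPM for neurons, 1299 to 1375 against 1080 to 1192 CPM for astrocytes and 196 to 205 against 163 to 172 CPM for the oligodendrocyte lineage. The fibroblast or meningeal sum overlapped (2.07 to 3.09 against 1.86 to 3.15 CPM). Under DMSO the neuronal sum was 7422 to 7895 against 4864 to 6032 CPM and that of the oligodendrocyte lineage 187 to 200 against 155 to 178 CPM, while the astrocyte sum overlapped (1307 to 1435 against 1111 to 1579 CPM). The part of these levels in the result was not tested.

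For MM401 itself no proteasome gene was called by the main test, which does not show that no level changed. Against DMSO with water at 4 h, edgeR's quasi-likelihood test called 0 of 49 genes, where 0.0826% of all tested genes were called, and 7 had an unadjusted p under 0.05, as did 12.9% of all. With bicuculline at 1 h it called 0, against 0.0059% of all tested genes, and 1 had an unadjusted p under 0.05, against 3.18%. With bicuculline at 4 h it called 0, against 0% of all tested genes, and 3 had an unadjusted p under 0.05, against 7.72%. DESeq2 called 0 in each. The log2 differences of the 49 genes ranged from -1.36 (Psme2b, ± 0.52, adjusted p = 0.292) to 0.22 with water at 4 h and from -0.35 to 0.47 with bicuculline at 1 h. At 4 h with bicuculline they ranged from -0.20 for Psme4 (± 0.09, adjusted p = 0.639) to 0.28. With water for 4 h against 1 h under MM401 edgeR's quasi-likelihood test called 0 of 49, against 0.867% of all tested genes, and 3 had an unadjusted p under 0.05, against 10%. DESeq2 called 0.

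The difference of the bicuculline response between MM401 and DMSO was tested as an interaction, with the water 4 h groups as the base at both times, and edgeR's quasi-likelihood test called 0 of 49 genes at 1 h and at 4 h, against 0% of all tested genes. At each time 6 had an unadjusted p under 0.05, against 7.82% of all tested genes at 1 h and 15% at 4 h. For Psme4 at 4 h the response was smaller under MM401 by 0.42 ± 0.14 on the log2 scale (adjusted p = 0.229). DESeq2 called this one gene (-0.45, adjusted p = 0.0498). Without DMSO water replicate 1, in which Psme4 was highest, edgeR's quasi-likelihood test called it too (-0.55 ± 0.12, adjusted p = 0.00956), together with Psmg3 (0.78 ± 0.22, adjusted p = 0.0308). In the same fit Psme4 was higher (0.35 ± 0.09, adjusted p = 0.0258) and Psmb8 lower (-1.20 ± 0.36, adjusted p = 0.0462) with MM401 in water at 4 h. Whether the response of Psme4 was called different between the pretreatments thus changed with the tool and with that library. Over all tested genes the interaction at 4 h also went with gene length, with medians of -0.15 over 50 kb and 0.33 under 5 kb. Psme4 spans 109 kb and Psmg3 3.28 kb, and the part of length in these calls was not tested.

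Under DMSO the direction of the response went with the length of the gene over all tested genes. After 1 h under DMSO 3 of the 5 proteasome genes over 50 kb were called higher and 0 lower, while of the 10 genes under 5 kb 0 were called higher and 3 lower, and of the 12 from 5 to 10 kb 0 higher and 1 lower. Of all tested genes 1741 of 4724 over 50 kb were called higher and 503 lower, 196 and 466 of 2273 under 5 kb, and 218 and 718 of 2208 from 5 to 10 kb. The all-gene median log2 fold change was 0.14 over 50 kb, -0.06 from 20 to 50 kb, -0.15 from 10 to 20 kb, -0.20 from 5 to 10 kb and -0.18 under 5 kb. After 4 h under DMSO the median over 50 kb was 0.17, and Psme4 at 0.90 lay above it. Under MM401 after 1 h the medians fell in the same order down to the class from 10 to 20 kb, and the shortest genes departed from it. The all-gene medians were 0.13 over 50 kb, -0.07 from 20 to 50 kb, -0.12 from 10 to 20 kb, -0.10 from 5 to 10 kb and 0.03 under 5 kb, and after 4 h the median was 0.04 over 50 kb and 0.13 under 5 kb. The 10 proteasome genes under 5 kb had medians of 0.27 and 0.24 under MM401, and the 5 over 50 kb 0.16 and -0.0029. When each library was corrected for gene length, the splits into higher and lower became 8 and 6, 7 and 5, 11 and 6, and 6 and 9 in the 4 bicuculline comparisons, and Psme4, Psmd11 and Psmd9 kept their calls in each. The part of gene length in the other results was not tested further.

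**Figure D4:**
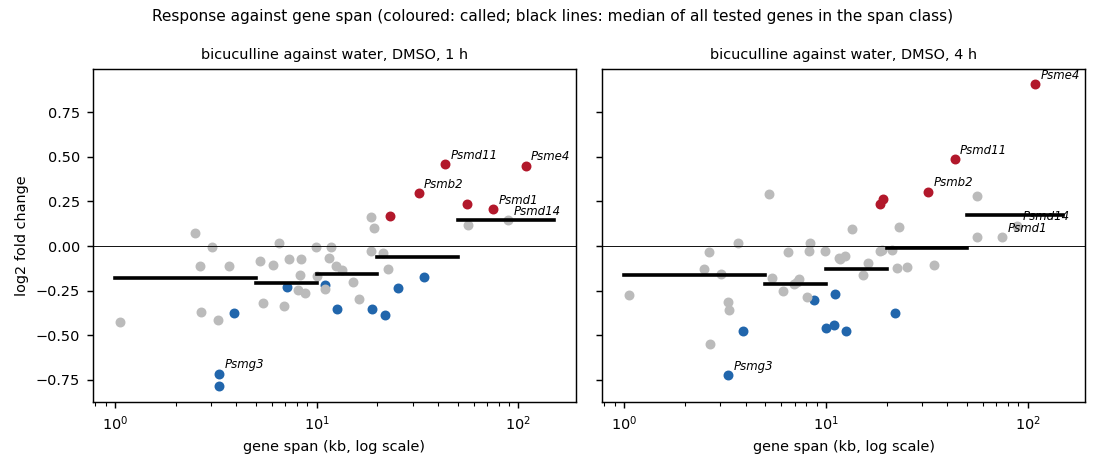
Log2 fold change (y axis) of the 49 tested genes against their span in kb (x axis, log scale) after 1 h and 4 h of bicuculline under DMSO; red and blue points are called, grey points are not, and black lines are medians of all tested genes per span class. The all-gene medians are higher for long genes under DMSO, with values of 0.14 over 50 kb and -0.20 from 5 to 10 kb after 1 h, and Psme4 at 0.90 stands above its class after 4 h.

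Genes that were not called tended to vary between replicates. The median over genes of the within-group coefficient of variation was 4.36% in the 25 genes called in at least 1 bicuculline comparison and 12.4% in the 24 called in none, a spread that the test itself uses. In 10 of 49 genes, among them Psmc3, Psmc4, Psmc5, Psmd13, Psmd12 and Psma7, replicate 1 was the lowest library in at least 6 of the 7 groups, beside 5.45% of all tested genes. Psmd13, of the lid, was at 40.4, 61.1 and 53.3 CPM in DMSO water and at 32.6, 63.3 and 49.0 CPM after 4 h. The lid gene Psmd7, also among the 10, was not called under DMSO (-0.25 ± 0.17 and -0.28 ± 0.17, adjusted p = 0.257 and 0.183), but was called lower with the replicate number as a block (adjusted p = 0.0497 and 0.0236). For genes with such a spread a missing call does not show that the level was the same.

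**Figure D5:**
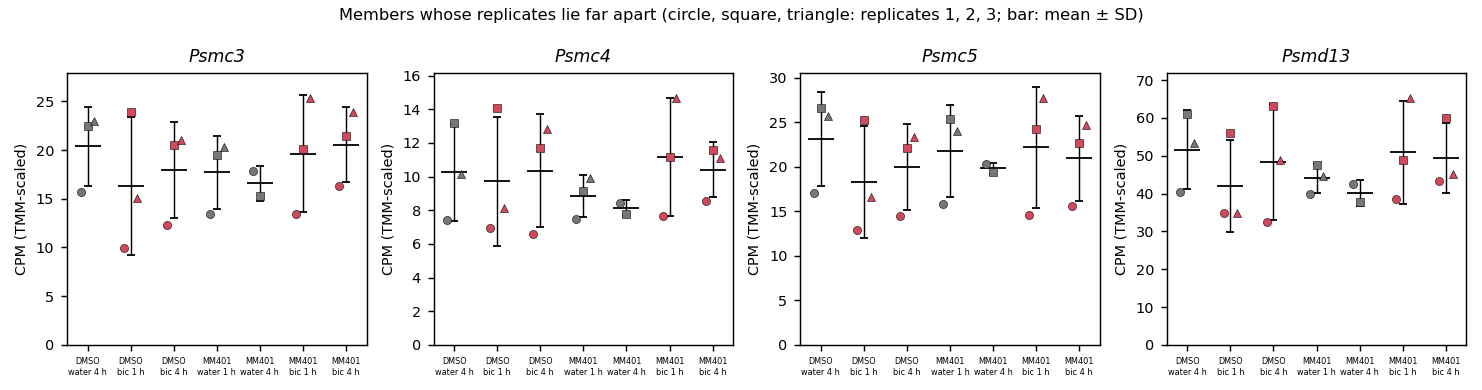
CPM (y axis, from 0) of Psmc3, Psmc4, Psmc5 and Psmd13 in each of the 20 libraries (x axis, groups; grey water, red bicuculline; bar, mean ± SD). The circle, replicate 1, is the lowest in 6 of the 7 groups for each of the 4 genes, for example 40.4 CPM against 61.1 and 53.3 CPM for Psmd13 in DMSO water.

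Genes of the same pathway outside the name rule were read from a list of further subunits and helpers, 11 of which were tested: 2 rose after 1 h and 5 after 4 h under DMSO, and 3 rose after 1 h and 3 rose and 1 fell after 4 h under MM401. The shares called, 18.2%, 45.5%, 27.3% and 36.4%, lay below those of all tested genes (44.6%, 49.2%, 39.9% and 44.6%). All but 1 of these calls were higher, beside 20%, 23.7%, 18.1% and 23% of all tested genes called higher. Zfand5, a protein known to stimulate the proteasome in muscle, rose from 131 to 139 CPM in DMSO water to 308 to 359 CPM after 1 h and 247 to 288 CPM after 4 h (1.30 ± 0.06 and 0.98 ± 0.06, adjusted p = 4.03e-13 and 3.29e-11). Txnl1, a thioredoxin bound to the regulatory particle, rose by 0.46 ± 0.07 after 1 h and by 0.99 ± 0.07 after 4 h under DMSO (adjusted p = 1.18e-05 and 1.07e-10). Under MM401 Zfand5 rose by 1.34 and 0.99 and Txnl1 by 0.49 and 0.76. Pomp, the chaperone that completes the core, was not called (0.17 ± 0.08 and -0.02 ± 0.08 under DMSO).

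Of 11 tested genes in the list of transcriptional control, 5 rose and 4 fell after 1 h under DMSO, 6 rose and 2 fell after 4 h, and under MM401 5 rose and 2 fell after 1 h and 6 rose and 2 fell after 4 h. The shares called were 81.8%, 72.7%, 63.6% and 72.7%, beside 44.6%, 49.2%, 39.9% and 44.6% of all tested genes. Nfe2l1, the factor that raises proteasome genes when the proteasome is inhibited, was not called in any of the 4 (-0.19 ± 0.13, -0.17 ± 0.13, -0.23 ± 0.13 and -0.03 ± 0.14). Its relative Nfe2l2 rose in each (0.27 ± 0.10, 0.46 ± 0.10, 0.28 ± 0.10 and 0.71 ± 0.12), as did the small Maf gene Maff, by 2.52 ± 0.20 after 1 h and 1.30 ± 0.21 after 4 h under DMSO. Keap1, which holds Nfe2l2 back, fell by 0.50 ± 0.13 and 0.60 ± 0.13 under DMSO. After 1 h under DMSO another called gene of this list, not named here, fell more than Keap1 (-0.82). Of 16 ubiquitin genes, shuttles and segregase genes, 3 rose and 2 fell under DMSO at each time, and under MM401 7 rose and 1 fell after 1 h and 4 rose and 1 fell after 4 h. The shares called were 31.2%, 31.2%, 50% and 31.2%, the first, second and last below those of all tested genes. In that list the co-chaperone Bag3 rose by 1.04 ± 0.15 after 1 h under DMSO, and the shuttle Ubqln4 fell by 0.40 ± 0.08 after 1 h and 0.60 ± 0.08 after 4 h.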

How the data were processed

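BrU-seq libraries were described by whole-gene counts that the authors deposited, 1 value per gene and library. The submitters' processing notes name the build mm10 and the tools Bowtie2, featureCounts, UMI-tools, DESeq2 and deepTools; roles, versions, strand use and the meaning of the replicate numbers are not given in the sources used here. Without stated strand use, reads of overlapping genes on opposite strands (Psmd1 with Htr2b, Psma3 with 3110056K07Rik) cannot be told apart, and near-identical copies share reads.

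The deposited counts of 20 libraries in 7 groups were filtered (filterByExpr, minimum count 10), scaled by TMM and fitted with edgeR 4.0.16 (R 4.3.3, limma 3.58.1; robust quasi-likelihood test, no block, Benjamini-Hochberg over 16959 genes); the script was tested on simulated data. CPM are scaled to the TMM library size. The common biological coefficient of variation was 8.77%. SE is the size of the log2 fold change divided by the square root of F. Alternatives were DESeq2 1.42.0 and its size factors (RLE), plain library size, no filter, a lowess correction for gene length, a replicate block, only the groups compared, all 21 libraries, and each library left out. P-values measure the spread between these libraries. No 2 replicates agreed within counting noise (chi-square per degree of freedom 6.23 or more).

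The genes and lists were chosen with earlier results of these data known. Up to 6 called genes per direction and comparison, with groups that do not overlap, were named. A fixed set of subunits and the genes Nfe2l1, Nfe2l2 and Pomp were named whatever their values. Of other called pathway genes that changed by at least 0.5 not every one was named, and Tap2 was named below that size. Psmd5's return, Psmb4, Psmd7, Psmd13, Psmd12 and the lower alpha genes were added after their values were seen. Promoter windows come from RefSeq (GRCm38.p6), and coordinates are 1-based.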

Additional observations from a re-analysis of the deposited data

How the results depend on the processing

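Of the called-gene counts, those for bicuculline against water after 1 h under DMSO and after 4 h under MM401 stayed within 1.5 times under all 8 alternatives. With all 21 libraries the counts were 8 (4 h, DMSO), 8 (1 h, MM401), 3 (4 h against 1 h, DMSO) and 1 (4 h against 1 h, MM401). With plain library size 28 genes were called after 4 h under DMSO. For 4 h against 1 h under MM401, 3 were called with no filter on low counts and 2 with only the groups compared. DESeq2 called 1 gene, Psme4, in the interaction at 4 h. Plain library size turned the direction of Psma5 after 1 h under DMSO (-0.024), of Psmc6 (-0.0083) and Psmc2 (-0.041) after 4 h under DMSO, and of Psmc6 (-0.029) and Psmd1 (-0.053) after 1 h under MM401; with all 21 libraries Psmd11 after 4 h under MM401 was at -0.0027. The cause was not tested.

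With 1 library left out at a time the counts ranged from 13 to 19 and 12 to 15 (1 h and 4 h, DMSO), 13 to 18 and 9 to 13 (1 h and 4 h, MM401), 4 to 6 and 2 to 6 (4 h against 1 h, DMSO and MM401), 0 to 2 for MM401 against DMSO in water and for the interaction at 4 h, and 0 to 0 in the other comparisons. The count of 9 came without either MM401 water 4 h library, and both counts of 2 without DMSO water replicate 1.

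With the replicate number as a block, 19, 15, 19 and 15 genes were called in the 4 bicuculline comparisons, and 7 and 8 for 4 h against 1 h. Under it no call was lost, and those gained were Psmd6, Psmc2 and Psmd7 (1 h, DMSO), Psmd7 and Psma4 (4 h, DMSO), Psmb6, Psmb5 and Psmb4 (1 h, MM401), Psmc6 (4 h, MM401), and Psma2 and Psmd14 (4 h against 1 h, MM401). No label says what a number shares, but the library numbers in the titles run in order through each replicate number. Of 39 correlations of same-numbered deviations 16 were over 0.1, with a median of 0.0898. In 2 of 15 pairs of groups every one was (bicuculline 4 h under MM401 with bicuculline 4 h and with water 4 h under DMSO). Neither is a comparison of bicuculline with water. The first is the comparison of MM401 with DMSO at 4 h of bicuculline. In 10 of 49 genes replicate 1 was the lowest in at least 6 of 7 groups, beside 5.45% of all tested genes. By the cut of 0.1 the main test did not take the numbers to pair the samples, which does not show that they share nothing. The number of libraries per group, and counts of 10 to 72 for Psmb8 and Psmb9, limit the precision.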
